A study of Mus musculus with 6 samples.

Results

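The TGF-beta genes described here were 10 listed members of the pathway, taken from the deposited table of mouse RNA-seq values by their symbols in the GENCODE annotation of GRCm38. They were the ligands Tgfb1, Tgfb2, Tgfb3 and Inhba, the latent ligand-binding protein Ltbp1, the receptors Tgfbr1, Tgfbr2 and Tgfbr3, the inhibitor Smad7 and the secreted target Tgfbi. All 10 were among the 22310 genes of the table. RNA had been sequenced from primary mammary tumor cells of MMTV-PyMT mice, in which a mammary tumor virus promoter drives the polyoma middle T antigen in mammary epithelium. The cells, labelled with WT genotype, were plated overnight in DMEM/F12 with 2% FBS, 10 µg/ml insulin and 20 ng/ml hEGF, and the labels name no treatment of either group other than the sort. By the study's methods, the mice were on the FVB/N background and about 12 to 18 weeks old. On the next day Lin-CD24+CD90+ cells, called metastasis-initiating cells (MICs), were sorted from Lin-CD24+CD90- cells (non-MICs). Each gate gave 3 libraries, numbered 1 to 3 in both groups. The lineage gate removed cells with CD45, CD31 or Ter119. The study describes the replicates as separate experiments or tumors, without saying which applies to a number, and the labels do not say, so p-values measure the spread between these libraries. All cells had grown in serum, which contains TGF-beta of its own, and had spent a night on collagen-coated plates before the sort.

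TGF-beta ligands are secreted in a latent form, bound to their own propeptide and often through it to a latent TGF-beta binding protein in the extracellular matrix. Once released, a ligand dimer is bound by the type II receptor, which recruits and phosphorylates the type I receptor, and that receptor in turn phosphorylates SMAD2 and SMAD3. These enter the nucleus with SMAD4 and act on target genes, among them the inhibitory SMAD7, which closes a negative feedback loop. Activins, which are dimers of inhibin beta subunits, use their own receptors but the same SMAD2 and SMAD3. In mammary epithelium TGF-beta is known both as a brake on proliferation and as an inducer of epithelial-to-mesenchymal transition.

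Values are read counts scaled by the authors to the same total in every library, and are called scaled counts below. The libraries held between 31467281 and 51759769 reads, and replicate 3 was the deepest of both groups. Among the genes of the gates, Thy1, which encodes CD90, had scaled counts of 1509, 301 and 755 in MICs 1, 2 and 3 and of 16.9, 21.1 and 12.6 in non-MICs. Thy1 was therefore higher in every MIC library than in any non-MIC library, in the direction of the gate. Cd24a, the other gate gene, lay between 11309 and 19406 in MICs and between 14009 and 18754 in non-MICs. Luminal keratin and adhesion markers were abundant in both groups, with a summed scaled count of 211672 to 590209 in MICs and 277222 to 698538 in non-MICs. Of these 6 markers 2 were lower in MICs in all 3 pairs, Epcam and Elf5, a luminal progenitor factor, beside 18.8% of all genes. Elf5 was at 0.403, 0.524 and 0.487 times the paired library. Its adjusted p was 4.5e-04 in edgeR with the replicate number as a block and 0.139 in limma with it. In replicate 2 Elf5 had only 13 reads in MICs and 27 in non-MICs. Epcam was at 0.745, 0.854 and 0.998 times the paired library (adjusted p = 0.810 in edgeR with the block). Of the leukocyte markers Ptprc, which encodes CD45, and Adgre1 and Cd79a were at 0 in at least 1 library. Cd68 and Csf1r were present in every library, with 56 to 307 and 50 to 151 reads. The 5 leukocyte markers in the table summed to between 173 and 355 in MICs and between 180.0 and 367 in non-MICs. In bulk RNA, fewer cells of a type and less RNA per cell cannot be told apart.

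On GRCm38, Tgfb1 lies at chr7:25687002-25705077, Tgfb2 at chr1:186622792-186705989, Tgfb3 at chr12:86056745-86079041 and Inhba at chr13:16011851-16031621. Ltbp1 spans chr17:75005568-75392512. The receptor genes lie at chr4:47353222-47414931 for Tgfbr1, chr9:116084293-116175360 for Tgfbr2 and chr5:107106570-107289629 for Tgfbr3. Tgfbi lies on the chromosome of Inhba at chr13:56609523-56639562. Exons of Tgfb2 overlap an antisense gene by 124 bases and those of Tgfb3 overlap a pair of antisense genes by 163 and 257 bases. Each of these antisense genes had 8 reads or fewer in every library, and the strand setting of the counting was not given in the sources used here. Tgfbr3 shares 297 bases of exon on the same strand with an annotated gene that had no values here, so reads from those bases cannot be told apart.

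The 250 bases before the transcription start in RefSeq (GRCm38.p6) were read for 7 of the 10 members. The windows of 4 genes are shown: Inhba and Ltbp1, which followed each other across the 6 libraries, Tgfb2, which varied most among the ligands, and Tgfbr2, which had the largest difference between MICs and non-MICs. Capitals mark exact matches on either strand to the SMAD element CAGAC (or GTCTG), the cyclic AMP response element TGACGTCA (CRE) and the TATA box TATAAA (or TTTATA). The AP-1 site TGAGTCA (or TGACTCA) was searched too and was in none of the 4 windows. The windows are chr13:16011601-16011850 (plus strand) for Inhba, chr17:75005279-75005528 (plus strand, the first of 2 starts) for Ltbp1, chr1:186705990-186706239 (minus strand) for Tgfb2 and chr9:116175364-116175613 (minus strand) for Tgfbr2, each written in the direction of transcription.
Inhba: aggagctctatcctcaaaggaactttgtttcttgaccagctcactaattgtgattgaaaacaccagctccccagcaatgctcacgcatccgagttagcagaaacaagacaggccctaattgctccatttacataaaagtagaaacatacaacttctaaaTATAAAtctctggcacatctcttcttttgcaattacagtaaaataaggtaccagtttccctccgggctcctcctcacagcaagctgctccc
Ltbp1: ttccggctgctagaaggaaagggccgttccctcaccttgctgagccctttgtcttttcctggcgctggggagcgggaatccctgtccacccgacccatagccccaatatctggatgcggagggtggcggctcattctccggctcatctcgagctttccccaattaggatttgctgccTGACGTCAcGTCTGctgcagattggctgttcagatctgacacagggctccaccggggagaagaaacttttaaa
Tgfb2: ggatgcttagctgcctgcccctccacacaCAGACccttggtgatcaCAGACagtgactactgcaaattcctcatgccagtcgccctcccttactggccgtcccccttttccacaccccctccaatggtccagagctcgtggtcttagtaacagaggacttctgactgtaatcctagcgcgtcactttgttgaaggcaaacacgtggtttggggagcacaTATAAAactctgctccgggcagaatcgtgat
Tgfbr2: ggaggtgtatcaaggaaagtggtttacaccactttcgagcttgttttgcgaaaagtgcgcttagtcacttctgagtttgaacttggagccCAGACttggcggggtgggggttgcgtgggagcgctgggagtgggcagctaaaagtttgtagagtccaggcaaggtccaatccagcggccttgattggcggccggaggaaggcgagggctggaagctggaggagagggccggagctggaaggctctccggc

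Counted from the start site to its first base, the Inhba window held TATAAA at -91, a window with a GC content of 43.2%. The Ltbp1 window held the CRE at -73 and GTCTG at -64. In the Tgfb2 window CAGAC stood at -221 and -204 and TATAAA at -31, and in the Tgfbr2 window CAGAC stood at -160. Among all 32851 windows of the same length, 42.2% held the SMAD element, 12.4% the TATA box, 4.46% the AP-1 site and 1.55% the CRE, so that the SMAD element in particular is common at this length. A match is a run of letters and says nothing about binding in these cells. The windows shown for Inhba and Ltbp1 held none of these motifs in common, and these genes had been picked for their correlation. For Ltbp1 the bases just after the RefSeq start were not found in its GENCODE transcripts, so its start is uncertain.

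Levels per kilobase were divided by the union of all annotated exons of a gene. This length was 5042 bases for Tgfb1, 5791 for Tgfb2 and 3383 for Tgfb3. A transcript shorter than the union has its level understated, so ranks and shares per kb depend on this length. Per kilobase of exon, Inhba was the most abundant of the 10 genes. Inhba encodes the beta A subunit that forms activin A. Its level was 4136 ± 1419 scaled counts per kb (SD over 6 libraries), which put it at the 98.4th percentile of all genes of the table. Next stood Tgfb3 at 1202 ± 646 per kb and Tgfbr2 at 1097 ± 277 per kb, whose order changed between libraries, with Tgfb3 above Tgfbr2 in 2 of 6. Inhba was above Tgfb3 in 5 of 6 libraries and just below it in MIC replicate 1. Ltbp1 (787 ± 317 per kb) was below Tgfbr2 in all 6 libraries and above Smad7 (641 ± 142 per kb) in 4 of 6, so Ltbp1 and Smad7 had no fixed order. Below these 5 genes the ranges separated, since Smad7 was above Tgfbr1 (293 ± 77.6 per kb) and Tgfbr1 above Tgfb1 (150 ± 48.3 per kb) without overlap over the 6 libraries. At these exon lengths Tgfb1 and Tgfb2 (146 ± 91.8 per kb) did not differ beyond their spread. The lowest pair was Tgfbr3 (25.2 ± 7.30 per kb) and Tgfbi (22.8 ± 22.9 per kb), near the middle of all genes at the 46.8th and 45.9th percentiles.

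**Figure D1:**
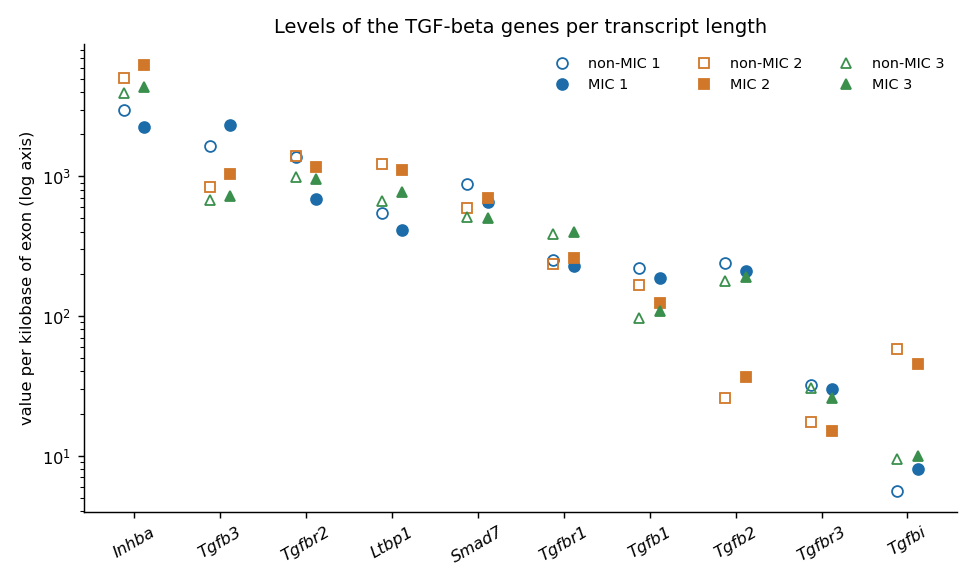
Scaled count per kilobase of exon (log axis) of the 10 TGF-beta genes, ordered by their mean; each point is 1 library, filled for MICs and open for non-MICs, with the shape and color giving the replicate number. Inhba stood highest in mean level at 4136 per kb, the points of replicate 2 lay apart for Tgfb2 and Tgfbi, and filled and open points of the same number mostly lay close together.

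Among the ligands, none passed the test between MICs and non-MICs. In limma on log2(scaled count + 1), with adjustment over all 22310 genes, the adjusted p was 1.00 for each of the 10 members, and 0% of all genes were called. At an unadjusted p under 0.05, 0 members were called, beside 1.44% of all genes. MIC and non-MIC values overlapped for all 10 members, whereas the groups did not overlap for 6.24% of all genes. Thy1, with a log2 difference of 5.32, was not called in this limma fit either (adjusted p = 0.816), so the fit could miss large differences. With the replicate number as a block in limma, the adjusted p of Thy1 was 5.3e-05.

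Tgfb3, the most abundant of the TGF-beta ligand transcripts, had scaled counts of 7811, 3499 and 2455 in MICs 1, 2 and 3 and of 5535, 2826 and 2272 in non-MICs 1, 2 and 3. Each MIC library was above its same-numbered non-MIC library, by 0.50, 0.31 and 0.11 on the log2 scale, but the 2 groups overlapped widely because replicate 1 was high in both. Its log2 difference of MICs minus non-MICs was 0.31 ± 0.49 (SE), with a 95% interval of -0.82 to 1.43. With the replicate number as a block in limma, the interval narrowed to -0.05 to 0.66 (adjusted p = 0.490). Tgfb3 was the 1 member of 10 that was higher in MICs in all 3 pairs, a pattern that 12.5% of all genes shared.

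Tgfb1, the ligand most widely made by tumor and immune cells, had scaled counts of 938, 627 and 547 in MICs and of 1110.25, 837 and 488 in non-MICs. Its MIC library was the lower of the pair for numbers 1 and 2 and the higher for number 3, and the order from replicate 1 to replicate 3 was the same in both groups. The log2 difference was -0.16 ± 0.37 (SE), and -0.57 to 0.24 was its 95% interval with the block (adjusted p = 0.754 in limma).

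Tgfb2 was the most uneven ligand. Its scaled counts were 1222, 210.2 and 1095 in MICs, against 1382, 149 and 1025 in non-MICs, so that both libraries of replicate 2 were several-fold below the other 4. Those 2 libraries held 189 and 141 reads of Tgfb2. The ratio between the highest and lowest pair mean was 7.31. Between groups the log2 difference was 0.14 ± 0.97 (SE), an error that came down to 0.19 with the block (95% interval -0.28 to 0.56, adjusted p = 0.813 in limma).

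Inhba gave the highest counts of the 10 genes, with 14465, 39791 and 27839 in MICs, against 19160.02, 32169.8 and 25167 in non-MICs. Replicate 2 was highest and replicate 1 lowest in both groups, the reverse of their order for Tgfb3. The MIC library was the lower in pair 1 and the higher in pairs 2 and 3. A log2 difference of 0.02 ± 0.39 (SE) resulted, and with the block its 95% interval was -0.42 to 0.45 (adjusted p = 0.984 in limma).

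**Figure D2:**
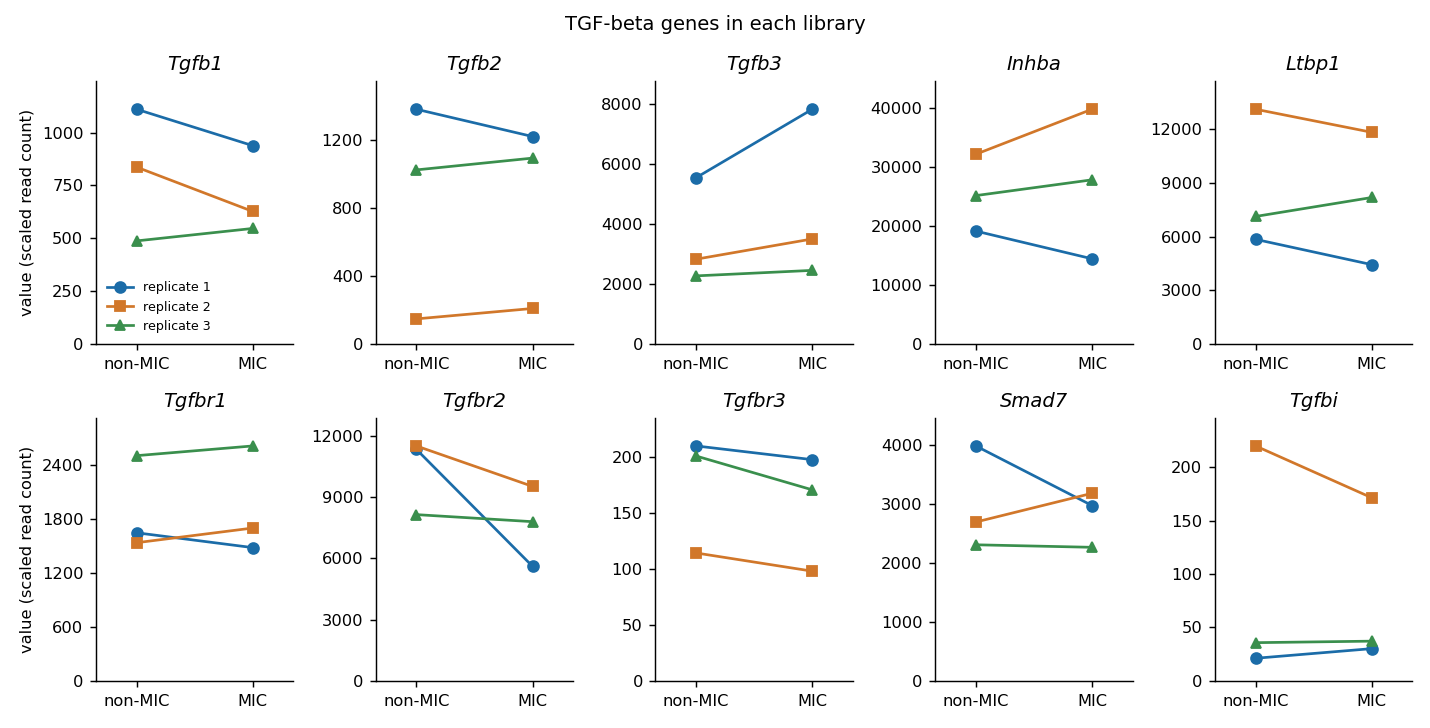
Scaled read count of each TGF-beta gene in the 3 non-MIC and 3 MIC libraries (linear axes from 0, a different scale for each gene); lines join libraries with the same replicate number. Lines of different replicates stand apart for Tgfb2, Tgfb3 and Tgfbi, while for Tgfbr2 the line of replicate 1 drops from 11328 in non-MICs to 5605 in MICs.

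Taking the 3 TGF-beta ligands per kilobase, Tgfb3 supplied most of their summed transcripts in every library. Its share was 85.3%, 86.6% and 70.9% in MICs 1, 2 and 3, against 78.1%, 81.3% and 71.0% in non-MICs. The share was above that of the paired non-MIC library in pairs 1 and 2 and about equal in pair 3, where the difference was -0.11 percentage points. Tgfb2 took between 2.50% and 18.7% of the sum and was the smallest part in replicate 2 and the second in replicate 3 of both groups. Tgfb1 took between 6.88% and 16.2%, and all of these shares depend on the exon lengths used. The summed level of the 3 ligands was higher in MICs in 3 of 3 pairs, by 611, 168 and 77.8 scaled counts per kb, with the largest difference in pair 1, but their ranges overlapped (1023 to 2706 in MICs and 945 to 2095 in non-MICs).

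Inhba alone exceeded the sum of the 3 TGF-beta ligands per kilobase in 5 of 6 libraries. The ratio was 0.84, 5.21 and 4.26 in MICs, against 1.43, 4.90 and 4.17 in non-MICs. Replicate 1 thus had a ratio near 1 in both groups, and replicates 2 and 3 had ratios above 4. The difference between replicate numbers was larger than that between MICs and non-MICs of the same number. A transcript ratio does not measure secreted or active ligand.

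**Figure D3:**
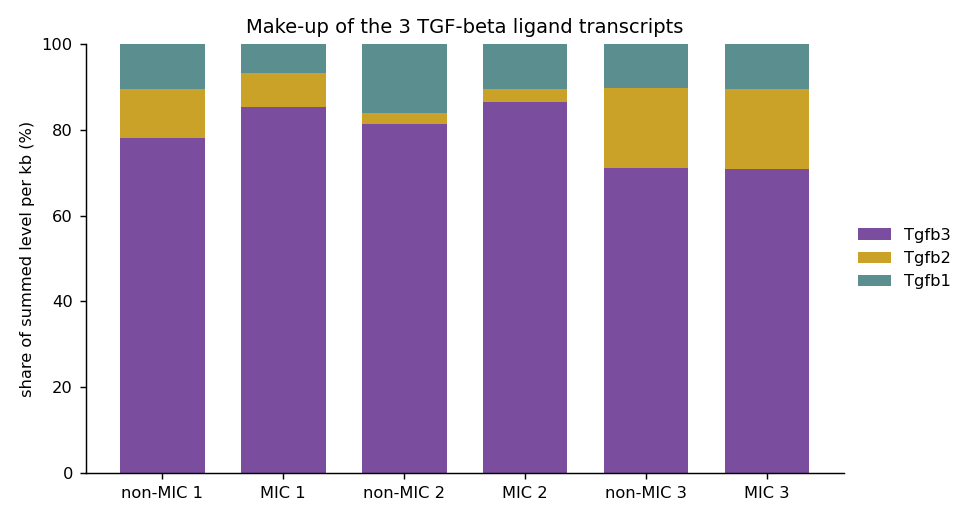
Share of each TGF-beta ligand in the summed scaled count per kb of Tgfb1, Tgfb2 and Tgfb3 (percent, stacked to 100) in each library, with paired libraries side by side. Tgfb3 took between 70.9% and 86.6%, and the share of Tgfb2 was small in both libraries of replicate 2 and largest in those of replicate 3.

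Ltbp1, which tethers latent TGF-beta to matrix fibrils, had scaled counts of 4435, 11809 and 8177 in MICs and of 5844, 13095 and 7119 in non-MICs. Both groups had their highest value in replicate 2 and their lowest in replicate 1, as Inhba did, and the groups overlapped. Its log2 difference was -0.12 ± 0.43 (SE), and with the block the 95% interval was -0.50 to 0.26 (adjusted p = 0.829 in limma). Across the 6 libraries Ltbp1 and Inhba had a Pearson r of 0.950 on log2 values, a description of 6 points that come as 3 pairs.

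Tgfbr2, the type II receptor that binds the ligand first, was the member with the largest difference between the groups. It had scaled counts of 5605, 9514 and 7788 in MICs 1, 2 and 3 and of 11328, 11493 and 8134 in non-MICs 1, 2 and 3. The MIC library was the lower in every pair, with log2 differences of -1.01, -0.27 and -0.06, and most of the mean came from pair 1. MIC replicate 2 exceeded non-MIC replicate 3, so the groups overlapped. The log2 difference of MICs minus non-MICs was -0.45 ± 0.26 (SE), a fold of 0.732, with a 95% interval of -1.05 to 0.15. In limma the unadjusted p was 0.122 unblocked and 0.0416 with the block (95% interval -0.88 to -0.02), and it was 0.0340 in edgeR with the block on the recovered reads. In DESeq2 with the block it was 0.0522. None of these passed adjustment over all genes (adjusted p = 0.431, 0.362 and 0.4003 in the blocked limma, edgeR and DESeq2 fits). At an unadjusted p under 0.05 in limma with the block, Tgfbr2 was the 1 member called of 10, beside 11.2% of all genes. Rescaling the libraries by TMM, a method of edgeR that allows for differences in RNA composition, turned pair 3 to 0.0069, so that the MIC library was then no longer the lower in all pairs. With 1 library or 1 pair left out at a time, its difference ranged from -0.64 to -0.17, and Tgfbr2 was the only member whose sign held in all of these fits.

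Tgfbr1, the type I receptor kinase that phosphorylates SMAD2 and SMAD3, had scaled counts of 1484, 1702 and 2616 in MICs and of 1649, 1538 and 2507 in non-MICs. Replicate 3 was highest in both groups. The group difference of 0.02 ± 0.30 (SE) on the log2 scale had a 95% interval of -0.33 to 0.37 with the block (adjusted p = 0.975 in limma). Tgfbr2 was more abundant than Tgfbr1 per kilobase in all 6 libraries, with a ratio of 3.01, 4.46 and 2.38 in MICs and of 5.48, 5.96 and 2.59 in non-MICs. This ratio was lower in MICs in 3 of 3 pairs, with differences of -2.47, -1.50 and -0.21 in the ratio, though its ranges overlapped and it was given no test.

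Tgfbr3, or betaglycan, is a co-receptor that presents ligand, Tgfb2 above all, to the type II receptor. It was sparse, with 88 to 286 reads in a library and scaled counts of 197, 97.9 and 170.4 in MICs and of 209.6, 114 and 201 in non-MICs. All 3 MIC libraries were below their paired non-MIC library by small amounts (log2 differences of -0.09, -0.22 and -0.23), and counting error alone is 10.7% (SD) at 88 reads. The log2 difference was -0.18 ± 0.44 (SE), with a 95% interval of -0.71 to 0.35 with the block (adjusted p = 0.805 in limma). Tgfbr2 and Tgfbr3 were the 2 members of 10 that were lower in MICs in all 3 pairs, beside 18.8% of all genes, which is nearly the same share.

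Smad7, the inhibitor that recruits ubiquitin ligases to the active receptor, had scaled counts of 2972, 3179 and 2264 in MICs and of 3982, 2692 and 2307 in non-MICs. The MIC library was lower in pair 1, higher in pair 2 and nearly equal in pair 3. Its log2 difference was -0.07 ± 0.26 (SE), the 95% interval with the block was -0.45 to 0.31 (adjusted p = 0.896 in limma). Its highest scaled count was 1.76 times its lowest, and Tgfbr1 had a ratio of the same size.

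Tgfbi, a secreted matrix protein first named for its induction by TGF-beta, was low in 4 libraries and well above that level in the other 2. Its scaled counts were 30.2, 171 and 37.2 in MICs, against 21.2, 219.8 and 35.8 in non-MICs, from 20 to 208 reads. Both libraries of replicate 2 held over 4 times the value of any other library, whichever gate they came from. With 20 reads in the lowest library the counting error was 22.4% (SD). The group difference was 0.06 ± 1.02 (SE) on the log2 scale and had an SE of 0.34 with the block (95% interval -0.68 to 0.80, adjusted p = 0.956 in limma). Changes in Tgfbi inside this interval remain possible at this depth and number of libraries. The interval is not adjusted over all genes, so a larger change could also go uncalled.

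**Figure D4:**
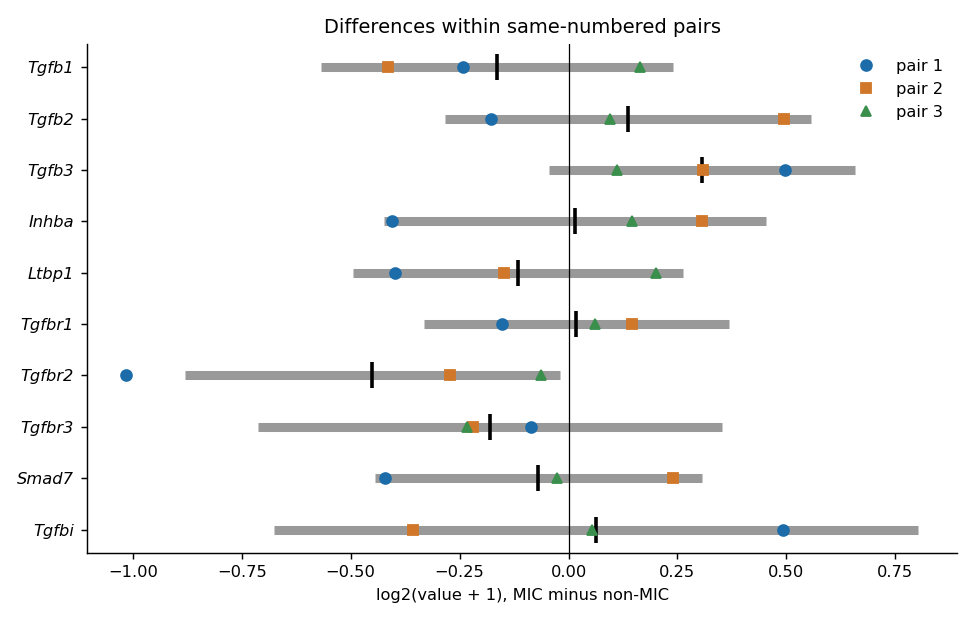
Difference of log2(scaled count + 1), MIC minus non-MIC, for each TGF-beta gene; colored points are the 3 same-numbered pairs, the black tick is their mean, and the gray bar is the 95% interval from limma with the replicate block. The bar of Tgfbr2 ends just below 0, at -0.02, and the bars of the other 9 genes contain 0; no adjusted p was under 0.05.

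Called by the blocked fits, the members numbered 0 of 10 in limma (beside 0.13% of all genes) and 0 of 10 in edgeR (beside 1.41%). The median log2 difference of the 10 members was -0.03, and that of all genes was -0.04. In pairs 1, 2 and 3 the members' medians were -0.21, -0.0018 and 0.08 beside -0.02, 0.04 and -0.05 for all genes. The members of pair 1 were thus on the low side in MICs, and those of pairs 2 and 3 were near the center.

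The replicate number separated the libraries for most members. Deviations from the group means were shared within a number, with correlations across genes of 0.573 to 0.746. Those of different numbers had correlations of -0.536 to -0.194. Deviations cancel out within a group by construction, so negative values between numbers were in part fixed in advance. An F test of the replicate number in the blocked limma fit, chosen after seeing the data, called 7 of the 10 members at an adjusted p under 0.05, beside 28.4% of all genes. The 3 others were Tgfbr2 (adjusted p = 0.350 in limma), Smad7 (0.120) and Tgfbr3 (0.0577). The ratio of the highest to the lowest pair mean was 7.42 for Tgfbi, 7.31 for Tgfb2, 2.78 for Tgfb3, 2.44 for Ltbp1, 2.15 for Inhba, 1.97 for Tgfb1, 1.92 for Tgfbr3, 1.64 for Tgfbr1, 1.51 for Smad7 and 1.31 for Tgfbr2. In 9 of the 10 members the range of the pair means exceeded the largest difference within a pair, as it did for 55.4% of all genes. Tgfbr2 was the exception, the member whose pairs were most alike on average and whose MIC and non-MIC libraries in pair 1 were furthest apart. Of all genes 9076 had under 50 reads in every library, against 0 of the 10 members. The 28.4% and 55.4% thus include many genes of lower depth than the members. In MICs 1, 2 and 3 the depth was 32458499, 31467281 and 51759769 reads, and in non-MICs it was 33069114, 33126717 and 49904738. What else a number stood for (tumor or culture day) cannot be told apart from these files, and the cause of these differences was not tested.

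Several members were high in the same replicates. Tgfbi, Inhba and Ltbp1 were highest in replicate 2, and the r of log2 values over 6 libraries was 0.8995 between Ltbp1 and Tgfbi and 0.792 between Inhba and Tgfbi. Tgfb2 and its co-receptor Tgfbr3 were both lowest in replicate 2, with an r of 0.949. In the other direction, r was -0.994 for Tgfb2 and Tgfbi and -0.961 for Tgfbr3 and Tgfbi. Tgfb1 and Tgfb3 were highest in replicate 1 and lowest in replicate 3 of both groups (r of 0.808), and the r of Tgfb1 with Smad7 was 0.806. With 3 pairs, these values mostly describe the difference between replicate numbers.

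The genes whose log2 values were most like those of a member were found among 11172 or 11173 other genes with a mean scaled count of at least 100. For Tgfb1 they were Zyx, which encodes the focal adhesion protein zyxin (r of 0.997 over 6 libraries), Plekhh3 (0.995) and Ppp2r5b, a regulatory subunit of protein phosphatase 2A (0.994). Those nearest to Tgfbr2 were Tet3, a methylcytosine dioxygenase (0.997), Kmt2b, a histone H3K4 methyltransferase (0.997), and Ccdc88c (0.996). Kmt2b had scaled counts of 1399, 2841 and 2190.2 in MICs and of 3572, 3691 and 2481 in non-MICs, with MIC replicate 1 the lowest, as for Tgfbr2. For Tgfbi they were Casc4 (0.996), Ccdc136 (0.996) and Gcnt4 (0.995). Between 213 and 342 genes had an r above 0.9 with each of these 3 members, so a near match was common with 6 libraries.

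The rest of the pathway was read from 5 lists, with 97 of 104 listed genes in the table outside the members. Without the block 0 of the 97 were called in limma, with 1 at an unadjusted p under 0.05, and edgeR called 0, with 2 at an unadjusted p under 0.05. With the block, limma called 4 of the 97 higher in MICs (0.121% of all genes were called in that direction) and 0 lower. edgeR with the block called 13 higher (beside 1.04%) and 1 lower (beside 0.372%). The F test of the replicate number called 57 of the 97 (58.8%), beside 28.4% of all genes. Of the 97, 6 had under 50 reads in every library, against 9076 of all 22310 genes.

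Most of these calls were among genes that TGF-beta is known to induce. Of the 25 in the list, 21 had a log2 difference above 0 and 4 below, with a median of 0.28 beside -0.04 for all genes, of which 10229 were above 0 and 12081 below. In all 3 pairs 11 of the 25 were higher in MICs, beside 12.5% of all genes. The list was compiled with results of these data known, so its direction is not independent evidence. Tagln, an actin-binding protein of contractile cells, rose in MICs in the blocked fits, from scaled counts of 18221, 418 and 1198 in non-MICs to 128221, 2558 and 7138 in MICs (log2 difference 2.67, adjusted p = 1.0e-05 in limma with the block). In each pair the MIC library was several-fold the higher, and replicate 1 of non-MICs still exceeded replicates 2 and 3 of MICs. Acta2, smooth muscle actin, followed it with a log2 difference of 2.42 (adjusted p = 3.1e-05 in limma with the block), although its reads can be split with those of other actin genes. Postn, the matrix protein periostin, rose by 2.50 (3.2e-05), and Igfbp3, an insulin-like growth factor binding protein, by 2.21 (0.046). These 4 were called in both blocked fits.

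In edgeR with the block 8 of the 25 were higher and 1 lower. Besides those 4 they included Col1a2, a type I collagen chain (log2 difference 1.74, adjusted p = 0.073 in limma with the block), and Snai2, a transcriptional repressor of epithelial genes (1.31, adjusted p = 0.139). Adam19 and Pthlh, named here after their values were seen, were among the others. Adam19, a membrane metalloprotease, had scaled counts of 1680.0, 622 and 203 in MICs and of 308, 776 and 97.5 in non-MICs, so that pair 2 did not share the direction (log2 difference 1.06, adjusted p = 5.7e-04 in edgeR with the block). Pthlh, the parathyroid hormone-related protein, was the 1 gene called lower (log2 difference -0.76, adjusted p = 0.0486 in edgeR with the block). The most abundant genes of the list, Fn1 and Ccn1, which encode fibronectin and a matricellular protein, had log2 differences of 0.23 and 0.01 and were not called. Without the pair of replicate 3 the blocked limma fit called 0 of the 25 and 0 of all genes, and without those of replicates 1 and 2 it called 3 and 7 of the 25.

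Some markers of basal or myoepithelial cells, which make contractile proteins of their own, moved with these genes. Of 7 such markers, 4 were higher in MICs in all 3 pairs and were called in edgeR with the block (Krt5, Trp63, Myh11 and Cnn1), and 3 of them were called in limma with the block. The summed scaled count of the 7 ranged from 20462 to 193965 in MICs and from 23362 to 95299 in non-MICs, at 2.04, 0.876 and 1.37 times the paired non-MIC library. Krt5, Myh11 and Cnn1 were higher in MICs in pair 2 as well, at 4.11, 4.76 and 4.46 times the non-MIC library, as Tagln was at 6.10 times. The other 3 markers were not called in either blocked fit and were lower in MICs in pair 2, with Krt14 at 0.535, Krt17 at 0.918 and Oxtr at 0.627 times the non-MIC library. Fibroblast markers summed to only 260 to 780 in MICs and 264 to 622 in non-MICs, with Lum and Dpt at 0 in at least 1 library and 0 of 6 called in edgeR with the block. The summed ratio of the fibroblast markers in pair 3 was 2.96, and in pairs 1 and 2 it was 0.724 and 0.978. Among them Pdgfra, with 72 to 376 reads, and Lum were higher in MICs in all 3 pairs. In pair 3 Col6a3 was at 9.21 and Pdgfrb at 3.67 times the non-MIC library. Both were lower in MICs in pair 1, at 0.487 and 0.899 times, and Col6a3 also in pair 2, at 0.282 times. Of the 6 pericyte markers Cspg4 alone, with 4 to 101 reads, was called in edgeR with the block, higher in MICs. Rgs5, Des and Kcnj8 were at 0 in at least 1 library. Notch3, with 253 to 710 reads, was at 0.364, 1.04 and 0.649 times the paired non-MIC library (adjusted p = 0.104 in edgeR with the block). In all 3 pairs 3 of the 6 were higher in MICs, beside 12.5% of all genes, and 0 were lower. Their summed scaled count was at 0.431, 1.06 and 0.883 times the paired library. The part of these cell types in the results was not tested.

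Genes for latency and activation of the ligand had a median log2 difference of 0.18, with 11 of 15 above 0. In limma 0 were called without the block and 0 with it (0 and 5 of the 15 had an unadjusted p under 0.05, beside 1.44% and 11.2% of all genes). Of the 5 with the block, 4 were higher in MICs and 1 was lower. The lower one was Ltbp3, named here after its values were seen, at 0.539, 0.746 and 0.852 times the paired library (log2 difference -0.51). With the block edgeR called 4, all higher in MICs (beside 1.04%), and DESeq2 called 0 of the 15 (beside 0.596% of all genes in either direction). These were Fbn1, the microfibril protein that anchors latent complexes (log2 difference 1.32, adjusted p = 1.8e-06 in edgeR with the block), the proteoglycans Bgn (1.10, adjusted p = 9.1e-05) and Dcn (1.57, adjusted p = 0.0152), and Lrrc32, a cell surface carrier of latent TGF-beta (1.08, adjusted p = 0.0245). Fbn1 had scaled counts of 1228, 619.5 and 494 in MICs and of 411, 656 and 89.1 in non-MICs, so that pair 2 did not share the direction. Dcn rested on few reads, with 55, 5 and 81 in MICs, against 25, 4 and 7 in non-MICs. Lrrc32 had 188, 29 and 248 reads in MICs and 60, 27 and 90 in non-MICs. Its pair 2 was nearly equal, at 1.13 times in scaled counts. The most abundant genes of the list, Thbs1, an activator of latent TGF-beta, and Ltbp2, a matrix relative of Ltbp1, had log2 differences of 0.02 and -0.21 and were not called. Ltbp1 itself, a member, had its MIC library below the non-MIC library in pairs 1 and 2.

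Of the activin and co-receptor genes 14 of 20 were in the table and 0 were called with the block by limma or edgeR, with 1 at an unadjusted p under 0.05 in each (beside 11.2% of all genes in limma). Fst, the secreted antagonist of activin, had scaled counts of 3337, 1123 and 7325 in MICs and of 2118, 880.1 and 5491 in non-MICs. Every MIC library of Fst exceeded its partner, by 0.66, 0.35 and 0.42 on the log2 scale, but its adjusted p was 0.417 in limma with the block. Gdf15, a stress-induced member of the family, had scaled counts of 287, 2342 and 76.4 in MICs and of 312, 2862 and 71.5 in non-MICs, so replicate 2 stood far above the others in both groups, and its log2 difference was -0.11.

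Among the SMAD transducers and regulators, 14 of 20 genes were below 0, as were 12081 of all 22310 genes, and the median was -0.15. The MIC library was the lower in all 3 pairs for 6 of the 20, beside 18.8% of all genes. With the block 0 were called in limma and 0 in edgeR, and 2 had an unadjusted p under 0.05 in each, both lower in MICs, beside 11.2% of all genes in limma. The most abundant were Pmepa1, a membrane inhibitor that TGF-beta induces, with a log2 difference of -0.23, and Strap, a partner of Smad7, with 0.20. Pmepa1 was lower in MICs in all 3 pairs, while Strap was higher in all 3.

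**Figure D5:**
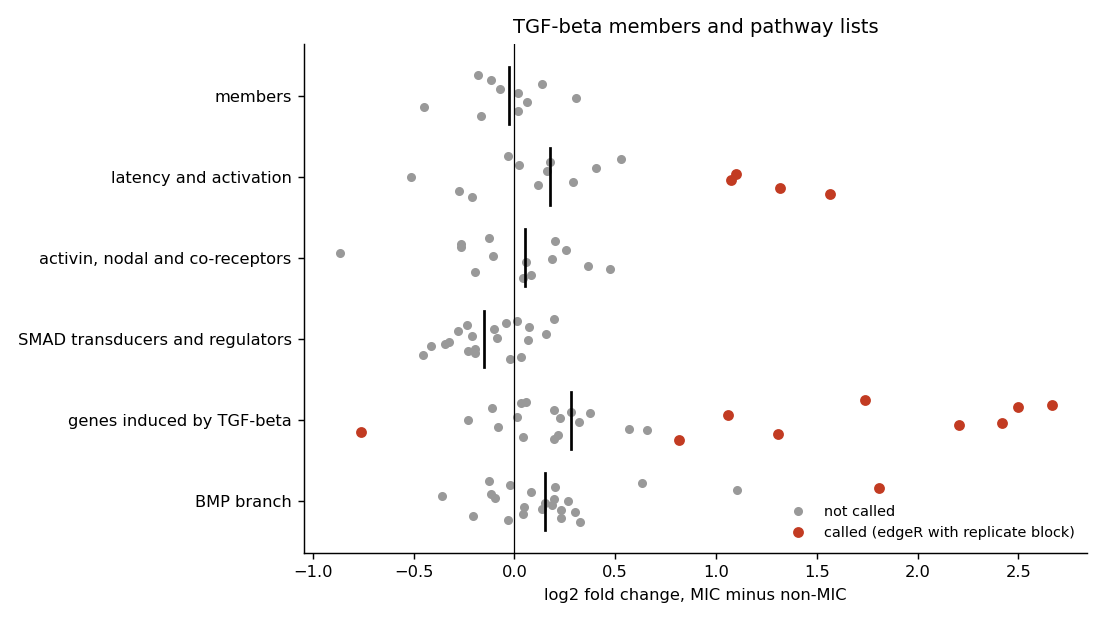
Log2 difference, MIC minus non-MIC, of each gene in the members and the 5 pathway lists; black lines mark the medians, and red points are genes with an adjusted p under 0.05 in edgeR with the replicate block. The members have 0 red points, the genes induced by TGF-beta have 9, of which 8 lie to the right of 0, and the latency list has 4.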

How the data were processed

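Primary MMTV-PyMT tumor cells were sorted into MICs and non-MICs, and stranded mRNA libraries, 3 of each, were sequenced. The authors aligned reads to the mouse genome or transcriptome (GRCm38/mm10), counted them per gene, normalized the counts to library size and kept expressed genes. The deposited signal values are these scaled counts. The paper's methods name Bowtie2 and samtools, and the submitters' processing notes name STAR and HTSeq, with no version given. Dividing by what 1 read is worth gave whole reads (within 0.01) for 99.99% to 100% of values. No other column of values was present. Of 22310 identifiers, 22161 had a symbol in GENCODE M21, which also gave positions and exon lengths.

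limma 3.58.1 in R 4.3.3 was run on log2(value + 1), with a trend and no block, as the study ranked genes without pairing, and adjusted by the Benjamini-Hochberg method over 22310 genes at 0.05. This scale understates changes of low genes. Same-numbered libraries had correlated deviations from their group means (0.573, 0.668 and 0.746), so blocked fits (replicate number as a term) are given beside it where they change a call. The recovered reads were tested by the quasi-likelihood method of edgeR 4.0.16 and by DESeq2 1.42.0. Other alternatives were a pseudocount of 0.1 or 10, a filter on low means (at their median), TMM and quantile scaling, no trend, and each library or pair left out. Tables were made with pandas 2.3.3 and numpy 2.4.6 in Python 3.11.15. The fits were also run on simulated data as a check of the code, which does not measure their power in these data.

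Named were the 10 members, Thy1 and Cd24a, the 2 genes of each list with the highest level per kb, up to 6 called genes a list, and the 3 genes most like Tgfb1, Tgfbr2 and Tgfbi. Others are said to be named after their values were seen, and some genes are not reported here. Members, lists and markers were chosen with earlier results of these data known. Reads were not collapsed by molecular identifiers, so read numbers set counting error only.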

Additional observations from a re-analysis of the deposited data

How the results depend on the processing

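Of the 10 members 0 were called in limma, edgeR or DESeq2, with or without the replicate block, or in limma with any library or pair left out. The pairing mattered for other genes. With the replicate block, the 97 other pathway genes gave 4 calls in limma, 14 in edgeR and 7 in DESeq2 in place of 0, and all genes gave 29, 315 and 133 in place of 0; DESeq2 without the block called 1. With libraries or pairs left out, calls ranged from 0 to 8 for the other pathway genes and from 0 to 59 for all genes (11 without pair 1), and the pair of replicate 3 was the one without which the blocked fit gave 0. Members lower in MICs in all pairs numbered 1 with TMM scaling in place of 2, and from 2 to 4 with a pair left out; members higher in all pairs numbered from 1 to 4. The members' median stayed between -0.14 and 0.06 on the log2 scale.

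Differences close to 0 changed sign with the processing: Inhba was at -0.031 and Smad7 at 0.0047 after quantile normalization, Tgfbi was at -0.27 in edgeR and -0.24 in DESeq2, and Cd24a was at 0.0017 in edgeR and at 0.035 and 0.017 in DESeq2 without and with the block. With libraries or pairs left out, log2 differences ran from -0.49 to 0.10 for Tgfb1, -0.86 to 0.95 for Tgfb2, -0.17 to 0.68 for Tgfb3, -0.22 to 0.24 for Tgfbr1, -0.46 to 0.12 for Tgfbr3, -0.31 to 0.42 for Inhba, -0.44 to 0.27 for Ltbp1, -0.24 to 0.16 for Smad7, -0.71 to 1.05 for Tgfbi and -0.21 to 0.22 for Cd24a. In blocked fits without pair 1, Ltbp1 was at 0.025, Smad7 at 0.11, Tgfbi at -0.15 and Cd24a at 0.13; without pair 2, Tgfb2 was at -0.042, Tgfbr1 at -0.046 and Inhba at -0.13; and without pair 3, Tgfbr1 was at -0.0033, Inhba at -0.049 and Cd24a at 0.037. The cause was not tested. Thy1 ran from 4.77 to 6.10 with libraries or pairs left out and was at 4.74 with a pseudocount of 10. Tgfbi had no value under the filter at the median. Other gene values kept their direction and their side of the threshold, apart from Thy1, which was called in 6 of the alternatives. Depth limits Tgfbi and Tgfbr3 most, with 20 and 88 reads in their lowest libraries.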

Other observations

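The BMP branch, which signals through SMAD1 and SMAD5 beside the TGF-beta branch, had 23 of 24 listed genes in the table. Its median log2 difference of MICs minus non-MICs was 0.15 beside -0.04 for all genes, with 16 genes above 0 and 7 below, and 2 genes were higher in MICs in all 3 pairs, beside 12.5% of all genes. In limma 0 were called with the block and 0 without it, and 2 and 0 had an unadjusted p under 0.05, beside 11.2% and 1.44% of all genes. edgeR with the block called 1 higher in MICs, beside 1.04%. Id3 and Id1, classical targets of BMP signaling and the most abundant genes of the list, had log2 differences of 0.04 and -0.09. Id1 had scaled counts of 976, 5036 and 185 in MICs and of 1109, 4584 and 217 in non-MICs, so it was highest in replicate 2 and lowest in replicate 3 of both groups. The replicate number was called for 14 of the 23 genes by the F test in limma, beside 28.4% of all genes. Of the 23, 5 had under 50 reads in every library, against 9076 of all 22310 genes.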
